A study of Mus musculus with 6 samples.

Results

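The regions described are ChIP-seq peaks of tagged GLI3R that were called only in doxycycline-treated cells and that lie inside protein-coding genes, away from gene ends. A peak of the doxycycline list was kept when no untreated peak overlapped it by 1 bp, when its midpoint lay inside a protein-coding gene, and when that midpoint was more than 1 kb from both ends of every protein-coding gene. The peaks were thus chosen by their call in the treated list, the absence of a call in the untreated list and their place. These gene-body peaks numbered 1408 of the 3640 doxycycline peaks. Of the remaining doxycycline peaks, 312 were doxycycline-only and within 1 kb of a gene end, 1847 were doxycycline-only outside genes, and 73 overlapped an untreated peak. The untreated list held 4379 peaks, of which 1598 were untreated-only by the same rule and lay in gene bodies. These 1598 peaks served as the comparison.

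The cells were cardiac progenitors derived from mouse embryonic stem cells of the line GLI3R-FTA, made on the A2Lox.cre strain, and all were harvested on day 6. The line carries an inducible, tagged GLI3R. The treated group received doxycycline at 500 ng/ml from day 5 for 24 h and the untreated group received none, so both groups carry the same transgene and differ in the drug as well as in the protein it induces. Each condition had 2 streptavidin pull-downs and 1 input, but 1 peak list, so no peak has a replicate value and no difference between the lists could be tested against replicate spread. Intervals given below are exact 95% intervals that cover counting error only. The line is a single engineered cell line, and overexpressed GLI3R is not the cells' own GLI3. The lists carry no expression values, so neither the level of GLI3R nor the cardiac identity of the cells could be checked here.

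GLI3 is a zinc-finger transcription factor of the Hedgehog pathway. Without Hedgehog ligand it is processed into a truncated repressor, GLI3R, which keeps target genes low, while ligand binding to the receptor PTCH1 relieves inhibition of Smoothened and favours activator forms of the GLI proteins. Ptch1, Hhip and Gli1 are textbook direct targets, so that the pathway regulates its own receptors and effectors, and GLI proteins recognise the sequence GACCACCCA or close variants of it. In the heart, Hedgehog signalling acts on second heart field progenitors, which are kept from differentiating too early.

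Sequence could be read where a peak's summit fell in the RefSeq windows that run from 250 bases before to 50 bases after a listed transcription start. This was so for 13 gene-body peaks and for 1 untreated-only gene-body peak. Starts inside a gene body are starts of shorter transcripts or of other genes, since the outer ends were avoided by the rule. The motif GACCACCCA was searched on both strands, together with its core CCACCCA, which the longer motif contains. GACCACCCA occurred in 83 of all 32619 windows (0.254%) and in 2 of the 13 windows holding a summit, those of Uaca and Gnb1l. CCACCCA occurred in 3054 windows (9.36%) and in 5 of the 13. Within the stretches that the peaks themselves cover before the start, 4 held the core, counting the 2 with the longer motif. A match is a description of letters and shows no binding at that site. The 5 stretches printed are the 2 with GACCACCCA, the 1 with a repeated core (Anks3), the strongest of the 13 (Ubtf), and that of Bcl2l1, a host of several peaks. They are written 5′ to 3′ on the strand of the transcript, from the part of the peak that lies before the start (RefSeq, GRCm38.p6), with motif matches in capitals.
Uaca, chr9:60794192-60794337, plus strand: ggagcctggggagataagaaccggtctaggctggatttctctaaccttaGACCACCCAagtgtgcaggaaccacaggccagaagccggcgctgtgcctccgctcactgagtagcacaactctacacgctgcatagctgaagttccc
Gnb1l, chr16:18498545-18498712, plus strand: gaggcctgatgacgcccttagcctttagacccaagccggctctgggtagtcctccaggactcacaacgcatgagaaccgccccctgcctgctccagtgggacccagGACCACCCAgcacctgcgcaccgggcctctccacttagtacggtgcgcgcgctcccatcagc
Anks3, chr16:4964272-4964467, minus strand: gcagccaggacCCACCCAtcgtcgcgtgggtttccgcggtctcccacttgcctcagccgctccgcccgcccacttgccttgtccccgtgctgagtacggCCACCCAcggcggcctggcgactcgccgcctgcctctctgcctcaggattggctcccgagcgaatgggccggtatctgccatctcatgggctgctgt
Ubtf, chr11:102317938-102318121, minus strand: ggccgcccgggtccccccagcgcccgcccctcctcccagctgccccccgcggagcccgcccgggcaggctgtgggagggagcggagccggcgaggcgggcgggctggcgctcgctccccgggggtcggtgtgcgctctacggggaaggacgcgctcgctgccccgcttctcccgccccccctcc
Bcl2l1, chr2:152830718-152830967, minus strand: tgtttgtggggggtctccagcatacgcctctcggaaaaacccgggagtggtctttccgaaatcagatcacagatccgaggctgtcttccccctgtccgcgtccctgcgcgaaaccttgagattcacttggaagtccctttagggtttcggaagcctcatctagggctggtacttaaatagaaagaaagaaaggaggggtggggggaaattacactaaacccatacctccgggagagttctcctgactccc

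In Gnb1l, which encodes a WD-repeat protein, the middle of the motif lay 4 bases from the summit of a 4.87-fold peak. In Uaca, which encodes an apoptosis-related ankyrin and coiled-coil protein, it lay 28 bases from the summit of a 5.85-fold peak. Both peaks were weak, with pileups of 6 and 7 fragments, where the pileup is the number of fragments stacked on the summit. The Anks3 stretch held the core at 2 places and belonged to a 10.9-fold peak with a pileup of 14. The Ubtf and Bcl2l1 stretches held neither motif. Ubtf, which encodes a factor for ribosomal RNA transcription, had an 11.7-fold peak in a stretch of 82.6% G and C.

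The gene-body peaks were mostly small, with a short tail of strong ones. Fold enrichment at the summit, the authors' own ratio for each peak, had a median of 5.56 and an interquartile range of 4.39 to 6.58, and it ran from 3.86 to 36.5. The pileup had a median of 7 fragments and ran from 5 to 49. At the lowest pileup of 5 fragments stood 376 peaks (26.7%, interval 24.4 to 29.1), while 93 (6.61%) reached 10-fold. The authors' −log10 q was at least 5 for 449 peaks (31.9%, interval 29.5 to 34.4). These values come from the contrast that chose the peaks and are given as a description.

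Other peaks had other strengths. Doxycycline-only peaks within 1 kb of a gene end had a median of 6.32-fold, and 50.0% of them reached a −log10 q of 5 (interval 44.3 to 55.7). Those outside genes had a median of 5.12-fold, and 30.4% reached it. Among untreated-only gene-body peaks the median was 4.72-fold, 130 (8.14%, interval 6.84 to 9.59) reached a −log10 q of 5, and 10 reached 10-fold. Gene-body peaks of the doxycycline list were thus nearer in strength to those outside genes than to those at gene ends. The untreated list starts at a pileup of 4 and has a lower local expectation, so folds, counts and shares past a q value are not on the same footing in both lists. Of the untreated-only gene-body peaks, 573 stood at a pileup of 4, below any doxycycline peak. Values for the 1025 with a pileup of at least 5, a choice made after seeing the data, are therefore given where they change an order. Of these 1025, 12.7% reached a −log10 q of 5 (interval 10.7 to 14.9).

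**Figure D1:**
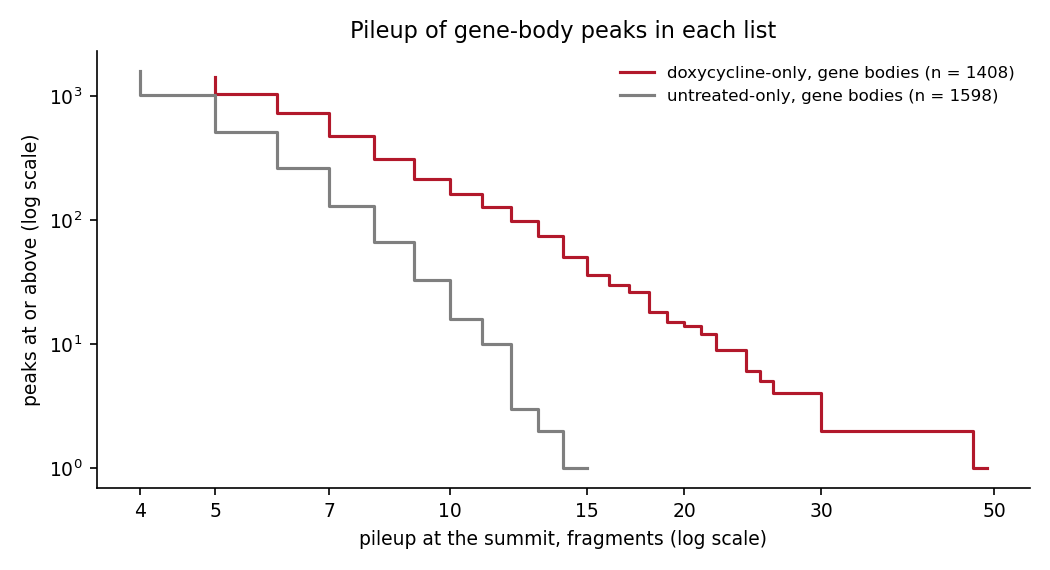
Number of gene-body peaks at or above each summit pileup (fragments, both axes log), for the 1408 doxycycline-only and the 1598 untreated-only peaks. The doxycycline curve reaches 49 fragments and the untreated curve ends at 15.

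The strongest gene-body peak lay in Arrb1, which encodes β-arrestin 1, an adaptor of G protein-coupled receptors. It reached 36.5-fold with a pileup of 49 (chr7:99547701-99548165), 12.8 kb from the nearer end of the gene, and Arrb1 held 3 of these peaks in all. Ccdc146, which encodes a coiled-coil protein of centrioles and sperm flagella, had a 35.1-fold peak with a pileup of 47. Arrb1 and Ccdc146 stood well apart from the rest, as the next pileups were 30. Those were at Chd3, a helicase of the NuRD chromatin remodelling complex (22.7-fold, 1.40 kb from the nearer gene end), and at Rnf220, a RING-type ubiquitin ligase (22.5-fold). A peak in Tenm2, which encodes a teneurin adhesion protein, followed at 19.7-fold. The other 20 of the 25 strongest ran from 13.2-fold in Frem1, a basement membrane protein whose peak tied with others at this value, to 18.3-fold in Cd160, Col18a1 and Adcy5.

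Adcy5 encodes an adenylate cyclase that makes cyclic AMP, and its 18.3-fold peak lay 61.0 kb from the start of the gene. Prkar2a encodes a regulatory subunit of protein kinase A and had a 13.9-fold peak. Gipc1, an adaptor with a PDZ domain, had a 15.7-fold peak at 2.35 kb from the nearer gene end. Rab34 encodes a small GTPase needed to build primary cilia, the organelle in which vertebrate Hedgehog signalling takes place. Its 16.4-fold peak lay 1.07 kb from the start of a gene that is 3.77 kb long. Ece1, the endothelin-converting enzyme, held 4 gene-body peaks at 14.6-, 7.10-, 6.75- and 5.85-fold, spread from 15.6 to 93.1 kb from its start. Bcl2l1, which encodes the survival protein BCL-XL, held 3, at 13.8-, 6.37- and 5.85-fold. The strongest peak of Bcl2l1 lay 67.2 kb from the start, toward the far end of the 75.1 kb gene. It was also 1.56 kb from an end of another protein-coding gene.

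Among Hedgehog pathway genes, 6 of the 38 that could hold a gene-body peak held a doxycycline-only one and 7 held an untreated-only one. Over all 19138 protein-coding genes long enough, 1178 held a doxycycline-only gene-body peak (6.16%) and 1263 an untreated-only one (6.6%). With the pileup of at least 5 in both lists the order was the opposite, at 854 genes (4.46%) for the untreated list overall and 4 Hedgehog genes. With a −log10 q of at least 5, 3 of the 38 Hedgehog genes held a doxycycline-only peak, against a background of 2.18%, and 0 held an untreated-only peak, against 0.643%. The 3 genes were Ptch1, Hhip and Hhat. The 38 genes had a median length of 42.7 kb, against 21.4 kb for all genes able to hold a peak, and length was not matched.

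Ptch1, the Hedgehog receptor, held 3 gene-body peaks within 3.51 kb of each other. They reached 17.7-fold (chr13:63566320-63566944, pileup 25), 10.2-fold (chr13:63562837-63563410, pileup 13) and 5.12-fold (chr13:63565052-63565237, pileup 6). Their distances from the outer start of the gene were 6.83, 10.3 and 8.32 kb. RefSeq lists further Ptch1 starts inside the gene, and the 17.7-fold and the 5.12-fold peaks lay 0.897 and 0.591 kb from one of them. Another doxycycline-only peak, 9.93-fold, sat at the outer start itself. The strongest Ptch1 signal was thus inside the gene, and the gene held 0 untreated-only gene-body peaks. Hhip, a membrane protein that binds Hedgehog ligands and limits their range, held 2 peaks of 7.31-fold at 8.60 and 25.4 kb from its start, with 0 untreated-only gene-body peaks.

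The other 4 Hedgehog hosts had peaks in both lists. Hhat, the enzyme that palmitoylates Hedgehog ligands, held a doxycycline-only peak of 6.58-fold and untreated-only peaks of 6.29- and 4.72-fold. Gli2, the main activator of the GLI family, held a doxycycline-only peak of 4.01-fold and an untreated-only peak of 5.50-fold. In Scube2, which helps to release Hedgehog ligand, the values were 4.39- and 6.29-fold. In Boc, a Hedgehog co-receptor, they were 4.39- and 3.93-fold. In these 4 genes the peaks of the lists lay at different places and were alike in size, and all had pileups under 10 fragments.

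**Figure D2:**
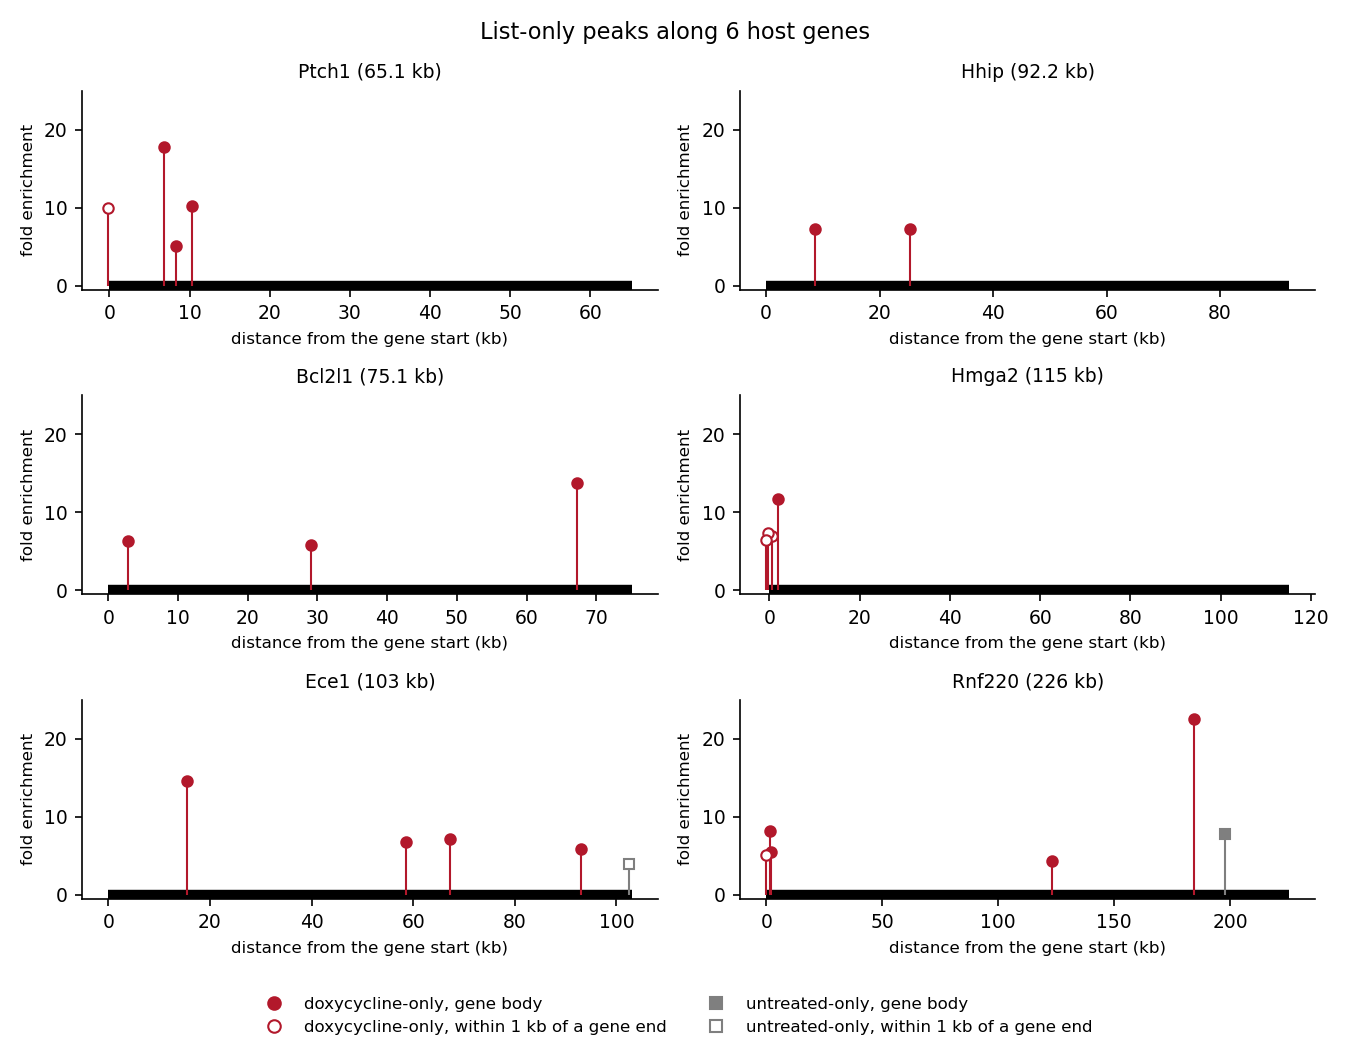
Fold enrichment of list-only peaks (vertical axis) by distance from the start of the gene in kb (horizontal axis) along Ptch1, Hhip, Bcl2l1, Hmga2, Ece1 and Rnf220, with the gene as a black bar. Filled red circles are doxycycline-only gene-body peaks and open ones lie within 1 kb of a gene end; grey squares are untreated-only peaks, of which Rnf220 and Ece1 have 1 each.

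Genes that control developmental timing through the Lin28 and let-7 axis were counted as a list of 18 genes, which was chosen with the title of the study known. Of these, 5 held a doxycycline-only gene-body peak, each with a peak at a −log10 q of 5 or more, while 1 held an untreated-only peak. Hmga2, a chromatin architectural protein of growing tissue and a let-7 target, had an 11.7-fold peak at 1.89 kb from its start, beside 3 doxycycline-only peaks of 6.95-, 7.31- and 6.43-fold within 1 kb of that start. Arid3a, a DNA-binding protein of the ARID family, held peaks of 11.0-, 11.0- and 4.39-fold. Igf2bp1, an RNA-binding protein of fetal tissue, had a 10.9-fold peak at 14.7 kb from the nearer gene end. Lin28a, which blocks let-7 maturation, had a 7.31-fold peak at 7.47 kb from its start. Trim71, a let-7 target that keeps progenitors undifferentiated, held 3 peaks within 1.61 kb, the strongest at 7.31-fold. The list is short, and the interval of its share (27.8%) runs from 9.69 to 53.5%. Over all genes able to hold a peak the share was 6.16%, or 2.18% at a −log10 q of at least 5. The 18 genes had a median length of 58.7 kb, against 21.4 kb for all genes able to hold a peak, and length was not matched. With margins of 2 and 5 kb from gene ends in place of 1 kb, the hosts numbered 4 and 3, against 1 untreated-only host at either margin.

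Cell cycle and survival genes gave 8 hosts of 41, and 7 of these had a peak at a −log10 q of 5 or more, against 4 and 1 in the untreated list. Much of this count lay near gene ends. With a margin of 2 kb the hosts were 5 against 4, and with 5 kb they were 3 against 4, so the order turned. With a pileup of at least 5 in both lists it was 8 against 1. The list shares were 19.5 and 9.76%, against 6.16 and 6.6% over all 19138 genes. At a −log10 q of at least 5 they were 17.1 and 2.44%, against 2.18 and 0.643%. The median length of the 41 genes was 17.8 kb, below the 21.4 kb of all genes that could hold a peak. Cdk6, a kinase of G1 phase, had a 12.3-fold peak at 1.58 kb from its start, and the start of the non-coding gene Gm36470 was 0.327 kb away. Mcl1, a survival protein of the BCL2 family, held peaks of 11.8- and 10.9-fold inside a gene of 6.24 kb. Mycl, a MYC family factor, had an 11.0-fold peak at 1.28 kb from its start. Bcl2l1 is described above, and the other hosts were Mycn, Cdc25b, Bcl2 and Rb1, with strongest peaks of 4.89- to 8.69-fold.

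Chromatin remodelling and corepressor genes had 14 hosts of 70, and 9 in the untreated list, with 5 and 0 at a −log10 q of at least 5. The 70 genes had a median length of 68.9 kb. Chd3 is described above. Nsd1, a histone H3 lysine methyltransferase, had an 8.04-fold peak, and Arid1b, a subunit of the BAF remodelling complex, a 7.57-fold peak. Nsd1 also held an untreated-only peak of 5.50-fold.

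Regulators of cardiac progenitors had 9 hosts of 55 and 5 in the untreated list, with 3 and 0 at a −log10 q of at least 5. Among these were Prdm16, a zinc-finger regulator (10.2-fold), and Osr1, a second heart field factor that lies downstream of Hedgehog signalling in the embryo (7.97-fold, 1.80 kb from the nearer gene end). Tead1, a Hippo pathway factor, had a 5.85-fold peak and Gata4, a core cardiac factor, a 4.39-fold peak. Sarcomere and ion handling genes, which mark differentiated muscle, had 10 hosts of 57 against 12 in the untreated list, and 4 against 3 at the higher threshold. Their strongest peaks were in Pdlim3, a Z-disc protein (9.50-fold), and Rbm20, a splicing factor of titin (8.04- and 6.58-fold). Rbm20 also held an untreated-only peak of 7.07-fold. The progenitor list thus differed by 4 hosts in favour of the doxycycline list and the sarcomere list by 2 in the other direction, both within the width of the intervals on their shares. At a pileup of at least 5 the sarcomere list stood at 10 against 8, the opposite order. The shares were 16.4 and 9.09% in the progenitor list and 17.5 and 21.1% in the sarcomere list. Over all 19138 genes they were 6.16 and 6.6%, or 2.18 and 0.643% at a −log10 q of at least 5. Median gene length was 36.75 kb in the progenitor list and 56.0 kb in the sarcomere list. Over all genes able to hold a peak it was 21.4 kb, and length was not matched.

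The signalling lists held few hosts each, and their order was not the same at every threshold. Median gene length ran from 19.8 kb in the Notch list to 65.1 kb in the BMP and TGF-β list. BMP and TGF-β genes had 6 of 40 against 4, among them Smad6, an inhibitory SMAD (9.50-fold), and Ski, a SMAD corepressor (9.50-fold). At a −log10 q of at least 5 the BMP count was 3 against 0. Smad6 also had a doxycycline-only peak of 5.10-fold at its start. WNT genes had 7 of 66 against 3, and 3 against 0 at the higher threshold, led by Vangl1, a planar polarity protein (10.7-fold), Wnt5b, a non-canonical ligand (8.04- and 6.95-fold), and Daam2, a formin of the WNT pathway (7.24-fold). FGF, ERK and insulin-like growth factor genes had 6 of 55 against 4, and with a 5 kb margin 4 against 4. At the higher threshold the order turned, with 1 host of a doxycycline-only peak, Igf1r, against 2 hosts of an untreated-only peak. These 2 were Sos1, an exchange factor for RAS, and Fgf14, an intracellular FGF homologue. The untreated-only peak of Sos1 was 11.3-fold with a pileup of 14, and that of Fgf14 was 8.65-fold. Sos1 also held a doxycycline-only peak of 5.85-fold, below that threshold. In the doxycycline list Igf1r, the IGF1 receptor, had peaks of 8.04- and 5.82-fold and Fgfr1, an FGF receptor, peaks of 5.81- and 5.74-fold. Notch genes had 3 of 28 against 4, with Maml3, a coactivator, at 8.04-fold and Rbpj, the DNA-binding effector, at 7.31-fold. At the higher threshold the Notch count was 2 against 2, and the untreated-only peaks were in Maml3 (6.81-fold) and Numb, a Notch inhibitor (9.43-fold). Primary cilium genes had 3 of 54 against 5, and the 3 were Ccdc146, Rab34 and Wdpcp, with 2 against 0 at the higher threshold. Ccdc146 was among the 5 as well, with 2 untreated-only peaks of 4.72-fold.

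Adhesion and guidance genes are long, and many held peaks of both lists. Actin, adhesion and matrix genes had 17 hosts of 71 against 14, among them Col18a1, a basement membrane collagen (18.3-fold), and Dock9, an activator of the GTPase CDC42 (8.51- and 5.12-fold). Axon guidance genes had 17 of 60 against 14, led by Sema6d, a semaphorin (8.77-fold). At the higher threshold these counts were 8 against 5 and 7 against 3, and with a 5 kb margin they were 13 against 13 and 14 against 13. Synaptic adhesion and neuronal genes, with a median length of 856 kb, had 28 hosts of 62 against 45 in the untreated list. Of these synaptic genes, 9 and 8 passed the higher threshold. This was the list with the largest excess of untreated hosts among the 15 lists. None of 24 housekeeping genes, of 6.88 kb in the median, held a peak of either list. Over all 15 lists, 139 of 738 genes held a doxycycline-only peak and 131 an untreated-only peak, or 104 at a pileup of at least 5. The matching shares over all 19138 genes were 6.16%, 6.6% and 4.46%. At the higher threshold they were 2.18% for doxycycline-only and 0.643% for untreated-only peaks. Long genes weigh on the lists, with medians of 125 kb for axon guidance and 114 kb for actin, adhesion and matrix genes, and length was not matched.

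**Figure D3:**
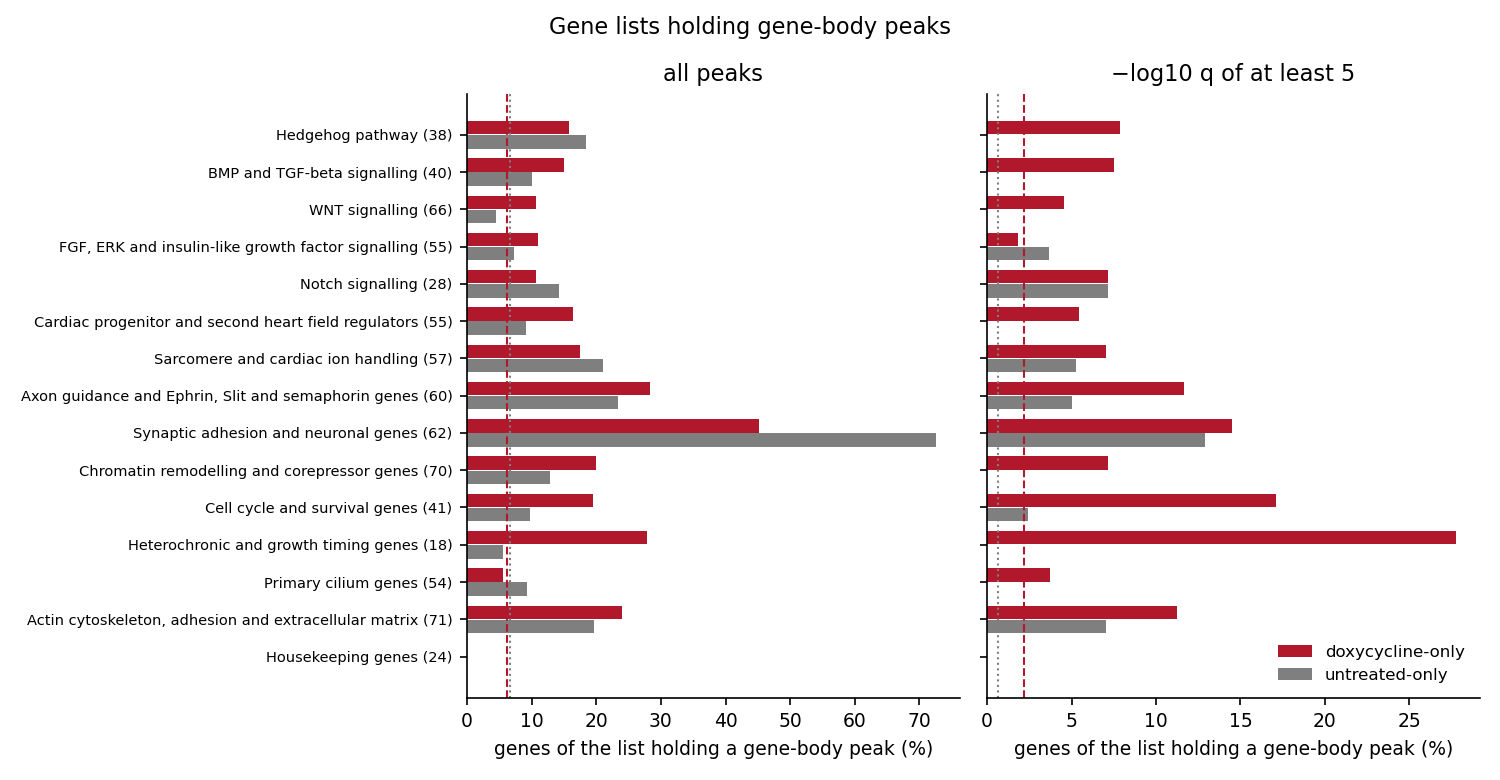
Share of genes of each list that held a gene-body peak (percent, bars), for all peaks on the left and for those reaching a −log10 q of 5 on the right; the number of genes able to hold a peak is in brackets. Dashed and dotted lines mark the shares over all 19138 genes, 6.16% and 6.6% on the left, 2.18% and 0.643% on the right, for doxycycline-only and untreated-only peaks.

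How often a gene held a peak followed its length in both lists. The 1178 hosts had a median length of 111 kb, against 21.4 kb for all genes able to hold a peak. Among the shortest genes, of 2 to 10 kb, 36 of 5252 held a doxycycline-only peak (0.685%, interval 0.481 to 0.948) and 15 an untreated-only peak (0.286%, interval 0.160 to 0.471). Among genes over 500 kb, 123 of 226 held a doxycycline-only peak (54.4%, interval 47.7 to 61.0) and 153 an untreated-only peak (67.7%, interval 61.2 to 73.8). Neither pair of intervals overlapped, and the order of the lists was opposite in the short and the long genes. At a pileup of at least 5 the untreated-only share was 0.209% in the shortest class (interval 0.105 to 0.374) and 57.5% in the longest (interval 50.8 to 64.1). The interval in the longest class then overlapped that of the doxycycline list, and in each class from 50 to 500 kb the order turned, for example 24.9% against 33.4% in genes of 200 to 500 kb. With a −log10 q of at least 5, the doxycycline-only share was the higher of the pair in every length class, from 0.343 against 0.0571% to 20.4 against 13.3%.

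**Figure D4:**
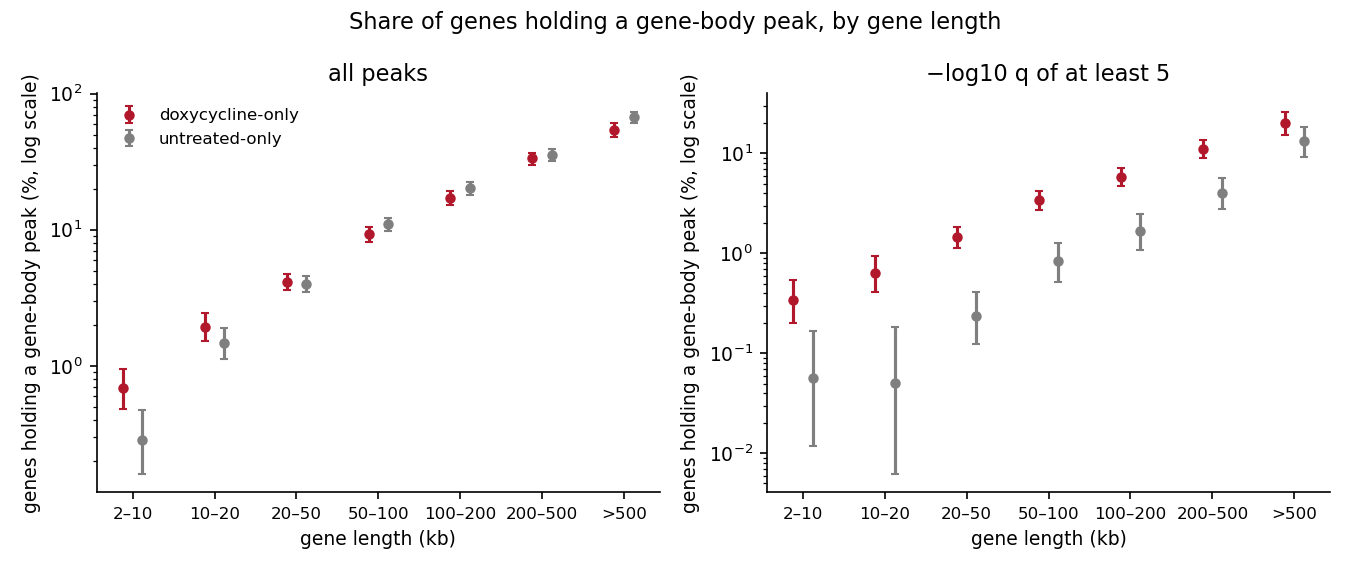
Share of genes holding a gene-body peak (percent, log axis) by gene length in kb, with exact 95% intervals, for all peaks on the left and those reaching a −log10 q of 5 on the right. In the left panel the doxycycline-only points lie above the untreated-only points in genes up to 50 kb and below them in longer genes.

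Most hosts held a single peak, and 13 peaks lay inside 2 genes at once. There were 991 genes with 1 gene-body peak, 144 with 2, 31 with 3, 11 with 4, and 1, Tg, with 5. Tg encodes thyroglobulin, the precursor of thyroid hormone, and its peaks reached 7.83-, 7.31-, 7.31-, 5.12- and 4.39-fold along 180.0 kb, with 0 untreated-only gene-body peaks. Both lists had a gene-body peak in 282 genes, which is 23.9% of doxycycline-only hosts and 22.3% of untreated-only hosts, and these genes had a median length of 325 kb. The 896 hosts without an untreated-only gene-body peak had a median length of 79.9 kb. Of the 43 genes with 3 or more peaks, 19 held 0 untreated-only gene-body peaks, among them Tg, Ece1, Cuedc1, Fancc, Arrb1, Ptch1 and Bcl2l1. Such an absence is common and does not set these genes apart. Over all 19138 genes only 6.6% held an untreated-only gene-body peak, and 76.1% of all hosts held 0. In contrast, Tenm3 and Ptprd, each over 1000 kb and encoding adhesion proteins of neurons, held 4 doxycycline-only peaks beside 8 and 5 untreated-only peaks.

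Strong peaks also occurred in genes with untreated-only peaks elsewhere. Ccdc146 held its 35.1-fold peak and 2 untreated-only peaks, both of 4.72-fold. Tenm2 held its 19.7-fold peak and 6 untreated-only peaks of 3.93- to 5.50-fold in a gene of 1230.4 kb. Rnf220 held doxycycline-only peaks of 22.5-, 8.17-, 5.48- and 4.39-fold, a doxycycline-only peak of 5.14-fold at its start, and an untreated-only peak of 7.74-fold. Phactr1, a regulator of actin, had a 12.4-fold peak, and Cbx7, a Polycomb subunit, an 11.6-fold peak, with 2 and 1 untreated-only peaks. An untreated peak lay within 1 kb of 3 doxycycline-only gene-body peaks, within 10 kb of 46, and within 50 kb of 214 (15.2%). The share for positions placed at random was not worked out, so these counts do not show whether neighbours were few or many.

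Some gene-body peaks came in tight groups. Counting peaks within 5 kb of each other, 76 peaks formed 36 groups, against 44 untreated-only peaks in 22 groups of 2. Groups of 3 were found in Ptch1, Trim71, Lasp1 and Igf2. Lasp1 encodes an actin-binding LIM protein and its group spanned 4.36 kb with a strongest peak of 7.26-fold. Igf2, a fetal growth factor, had 3 weak peaks within 2.58 kb, the strongest at 4.31-fold. Pairs with a strong peak included Adcy5 (18.3-fold, 1.38 kb apart) and Mcl1 (11.8-fold, 0.701 kb apart).

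Per length of sequence, doxycycline-only gene-body peaks were most frequent just inside the 1 kb margin. Their density over the 986 Mb that the rule allows was 1.43 peaks per Mb, against 1.62 for untreated-only peaks, and the intervals did not overlap. This order rested on the weakest untreated peaks, since at a pileup of at least 5 the untreated density was 1.04 per Mb (interval 0.977 to 1.11), below that of the doxycycline list. Between 1 and 2 kb from the nearest gene end it was 3.03 per Mb (interval 2.50 to 3.64, 115 peaks), against 1.40 (1.05 to 1.83, 53 peaks) in the untreated list. From 2 to 5 kb the densities were 1.51 and 1.31, with intervals that overlap. Beyond 100 kb the doxycycline density was 1.15 (1.01 to 1.30) and the untreated one 1.82 (1.64 to 2.01). At a pileup of at least 5 the untreated densities at 1 to 2 kb, 2 to 5 kb and beyond 100 kb were 0.790, 0.789 (interval 0.621 to 0.989) and 1.20 (1.05 to 1.35). The lists then differed beyond their intervals at 2 to 5 kb and overlapped beyond 100 kb. With a −log10 q of at least 5, the nearest class held 44 doxycycline-only peaks at 1.16 per Mb and 6 untreated-only peaks at 0.158, and the farthest class 58 at 0.275 and 37 at 0.175. In the doxycycline list the density thus fell away from gene ends, and in the untreated list it did not. Strength did not fall steadily with distance. The median was 5.68-fold at 1 to 2 kb, 5.85-fold at 5 to 10 kb, 5.12-fold at 20 to 50 kb, 5.74-fold at 50 to 100 kb and 5.12-fold beyond 100 kb. A −log10 q of 5 was reached by 44 of the 115 doxycycline-only peaks at 1 to 2 kb. It was reached by 78 of the 204 at 10 to 20 kb and by 58 of the 242 beyond 100 kb.

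**Figure D5:**
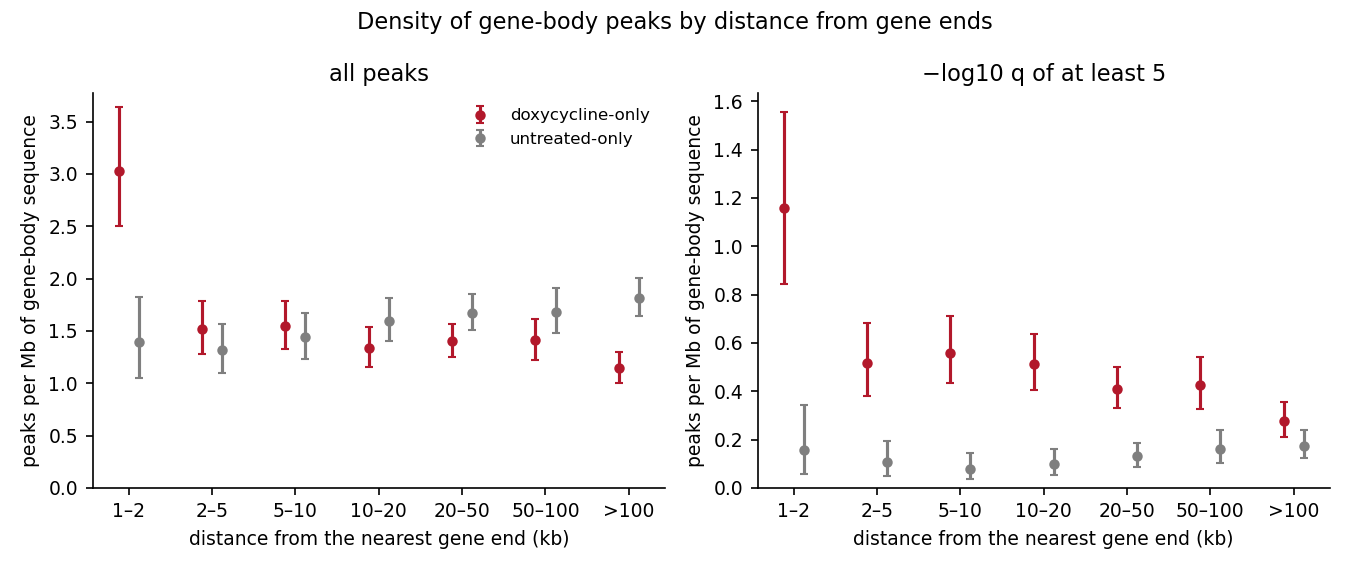
Peaks per Mb of gene-body sequence by distance from the nearest gene end in kb, with exact 95% Poisson intervals, for all peaks on the left and those reaching a −log10 q of 5 on the right. The doxycycline-only point at 1 to 2 kb stands at 3.03 per Mb, above the others of the left panel.

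Which end of the gene is the start was known for 914 of 1178 hosts (77.6%), from the table of RefSeq starts. That is under the 80% asked of such a check, so distance from the start is void as a property of all hosts, and the values that follow describe the genes with a listed start alone. These held 1094 of the gene-body peaks. Of these peaks, 72 (6.58%, interval 5.18 to 8.22) lay within 1 kb of a listed start, where 1.51% of the allowed sequence lies. In the untreated list the count was 15 of 1248 (1.20%, interval 0.674 to 1.97). The density within 1 kb of such starts was 6.17 per Mb (4.83 to 7.77) for doxycycline-only peaks and 1.29 (0.720 to 2.12) for untreated-only peaks, while elsewhere it was 1.34 and 1.62, or 1.04 for untreated-only peaks with a pileup of at least 5. With a −log10 q of at least 5, 24 doxycycline-only peaks of 333 (7.21%, interval 4.67 to 10.5) and 3 untreated-only peaks (2.97%, interval 0.617 to 8.44) lay near such starts, and these intervals overlapped. The listed starts were not kept away from gene ends, so some of the 72 can repeat the peaks just inside the 1 kb margin. The Rab34 peak, for example, lay 1.07 kb from the outer start and 0.747 kb from a listed one. The 72 were near a start of the host itself in 58 cases and of a long non-coding gene in 14. By strength they were led by Ptch1, Rab34, Brd2 (a BET bromodomain protein, 13.0-fold, 0.290 kb from the start, in an interval shared with H2-DMa), Cdk6 and Ubtf. Others near a start of their own gene were Plaur, the urokinase receptor (11.0-fold), Cdc25b, a phosphatase of mitotic entry (8.69-fold), and Gata3, a zinc-finger factor (7.31-fold).

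Hosts of a gene-body peak also had peaks at their own ends more often than other genes. A doxycycline-only peak within 1 kb of an end was found for 42 of 1178 hosts (3.57%, interval 2.58 to 4.79) and for 263 of the 17960 other genes (1.46%, interval 1.29 to 1.65). In the untreated list the counts were 8 of 1263 (0.633%, interval 0.274 to 1.24) and 72 of 17875 (0.403%, interval 0.315 to 0.507), and at a pileup of at least 5 they were 3 of 854 and 48 of 18284. Ptch1, Hmga2, Rnf220, Igf1r, Smad6, Vangl1 and Cdk6 were among the 42. The lists share a cell line but not libraries, and gene length, on which hosts and other genes differ, was not matched.

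By chromosome, the density was highest on chromosome 11, with 107 peaks at 2.03 per Mb (interval 1.66 to 2.45), and lowest on X, with 14 peaks at 0.320 (0.175 to 0.537). On X the untreated list was low as well, with 32 peaks at 0.731 per Mb (0.500 to 1.03), so a low X was common to both lists.

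The limits of the rule can be seen in the peaks beside them. The nearest kept peaks lay 1.01 kb from an end of Ndst4, a heparan sulfate modifying enzyme, at 4.39-fold, and 1.01 kb from an end of Epc1, a subunit of a histone acetyltransferase complex, at 11.0-fold. The nearest peaks left out lay 0.994 kb from an end of Maf, a bZIP factor, at 4.17-fold, and 0.990 kb from an end of Stx2, a syntaxin, at 5.85-fold. The weakest kept peaks, in Cacng1 and Wbp1l, reached 3.86-fold with a −log10 q of 1.33. Wbp1l also had a doxycycline-only peak of 14.7-fold at its start.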

How the data were processed

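The 6 ChIP-seq libraries were grouped by their titles, although the labels' treatment text speaks of GLI1 instead of GLI3R. The build mm10 and the tools MACS2 2.1.1, Bowtie2 2.3.2 and SAMtools 1.5 are named per the submitters' processing notes. For caller settings and any pooling of pull-downs, the sources used here give nothing.

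The fold of each peak is a ratio the authors deposited. The −log10 p and −log10 q are deposited values as well, and the score the authors deposited was not used further. They describe 1 peak each and served only to rank, filter or describe peaks. Coordinates count from 1.

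Repeated rows of an interval became 1 peak with its best summit. The pileup was worked back from fold and −log10 p, assuming fold = (pileup + 1) / (expectation + 1) and a Poisson upper tail, with a whole pileup matching within 0.001. Library totals were not analysed here. Genes were 21627 RefSeq protein-coding genes of GRCm38.p6 on 20 chromosomes, given without exons, and starts and strands came from RefSeq start windows. A gene could hold a peak if any base of it lay over 1 kb from every gene end (19138 genes). Lying in a gene does not make that gene the target of a peak. The genome sequence was not used here, so a planned motif search over all peaks was not made, and exons and introns were not analysed here.

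The peaks and the 15 gene lists were chosen with earlier results of these data known, and 746 of 748 list symbols matched. Genes were named by rule: hosts of the 25 strongest peaks, up to 12 hosts of 3 or more, every Hedgehog host, up to 4 hosts per other list, peaks beside the margin and the weakest, and up to 6 hosts of both kinds of peak. A few genes of the rule are not reported here. Others were chosen after their values were seen. Those are the hosts with printed sequence other than Bcl2l1, the further hosts near listed starts, and the groups in Trim71, Lasp1 and Igf2. They also include Gata4, the untreated-only peaks of Sos1, Fgf14 and Numb, and the last-named cell cycle genes. Shares have exact Clopper-Pearson intervals and densities exact Poisson intervals, both at 95%. No test was made between lists. Alternatives were other margins and overlap rules, the summit as position, every row, merged neighbours, minimum pileups, a −log10 q of 5 or more and the top 1000 peaks of each list. Placement, overlap and pileup were tested on simulated data. Software was Python 3.11.15 with matplotlib 3.10.9, scipy 1.17.1, pandas 2.3.3 and numpy 2.4.6.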

Additional observations from a re-analysis of the deposited data

How the results depend on the processing

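A −log10 q of at least 5 left 449 peaks in 417 hosts, 62 of them list genes, with a median of 7.31-fold, and put 1.16 peaks per Mb at 1 to 2 kb from gene ends. The share of untreated-only peaks near listed starts was then 2.97%, and the density over gene bodies was 0.324 per Mb higher for doxycycline-only peaks, where it had been lower. The top 1000 peaks of each list left 370 peaks, 344 hosts and 56 list genes, with 8.03-fold, 1.00 per Mb and a density difference of 0.0335. A pileup of at least 10 fragments, chosen after seeing the data, left 213 peaks, 204 hosts and 36 list genes, with 9.50-fold, 0.711 per Mb and 4.17% of untreated-only peaks near listed starts, and a density difference of 0.183. A pileup of at least 5 in both lists, also chosen after seeing the data, turned the density difference to 0.388 per Mb and moved the untreated-only hosts of 4 lists by over 1.5 times: Hedgehog from 7 to 4, WNT from 3 to 1, cell cycle from 4 to 1 and developmental timing from 1 to 0. The density difference itself was added after seeing the data. Margins of 0.5, 2 and 5 kb gave 10.6, 5.06 and 4.60% of doxycycline-only peaks near listed starts, and the margins of 0.5 and 5 kb gave a difference to the untreated list of 8.90 and 3.79 percentage points. That difference was positive under every alternative that gave it a value. At the 0.5 kb margin, a listed start within 1 kb can be the outer start of the gene. At the 1 kb margin it can still lie close to that outer start. The values at these 2 margins therefore do not describe starts well inside the gene body alone. At margins of 2 and 5 kb, a start within 1 kb of a peak lies over 1 kb from every protein-coding gene end. Removing peaks within 500 bp of an untreated one, asking for an overlap of 0.5 of the interval, and taking the summit as position moved none of these summary values beyond the intervals or the 1.5 times used for counts. Keeping all rows gave 1419 peaks. Motif alternatives were not run, since they need a genome sequence. No paired analysis was possible because a condition has only 1 list of peaks and no replicate columns. With pileups from 5 fragments, small differences between peaks lie within counting error.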
